A study of Mus musculus with 6 samples.

Results

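The genes described here are 40 genes of glucose metabolism and of the response to low oxygen, of 35027 genes in the expression table. They were taken by symbol and kept in 2 arms: 25 genes of glucose uptake, glycolysis and lactate handling, and 15 genes of the hypoxia-inducible factor (HIF) response. All 40 were in the table, and 39 could be tested (24 and 15). Aldoa, an aldolase of the upper pathway, has 2 loci of that name in the annotation and is given only on the deposited scale.

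RNA was sequenced from cancer cells sorted from mouse thyroid tumors. In the YAP group (replicates 1, 2 and 3), doxycycline in the chow from 4 weeks of age switched on YAPS127A, a form of the transcriptional coactivator YAP that stays in the nucleus, through a tetO promoter and an rtTA transgene that needs a thyroid-specific Cre. In the BrafYAP group (replicates 1, 2 and 6) the same Cre also turned on BrafV600E, a constitutively active kinase of the MAPK pathway, from its own locus. Both groups therefore carried the Cre, rtTA, YAPS127A, doxycycline and the red reporter Kate, and about 20000 Kate-positive cells were sorted for each library. There was no group without YAPS127A and none with mutant Braf alone, so the comparison is that of adding mutant Braf to YAPS127A. By the labels, each YAP library pooled 3 tumors and each BrafYAP library came from 1 tumor, whereas the study's methods give 1 tumor per replicate. Pooling and genotype cannot be told apart.

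Glycolysis turns glucose into pyruvate in the cytoplasm. Glucose enters through SLC2A transporters, is phosphorylated by hexokinase, is committed by phosphofructokinase, and after the enolase and pyruvate kinase steps is reduced to lactate by lactate dehydrogenase and exported by SLC16A transporters. When oxygen is low, prolyl hydroxylases (EGLN) no longer mark the HIF alpha subunits for destruction, and HIF bound to ARNT switches on many of these enzymes together with genes of pH control, vessel tone, mitophagy and collagen folding. Thyroid follicular cells are epithelial cells that lie against a dense capillary bed, and glucose uptake by thyroid tumors is used in imaging.

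HIF binds a short core, ACGTG or GCGTG, in the DNA of its targets. The 250 bases before the start were read for 37 of the 40 genes from RefSeq promoters of GRCm38.p6 (52 windows, since some genes have several starts). At least 1 core on either strand lay in 40 of 52 windows (76.9%), against 12679 of 32851 windows of all genes (38.6%). The share was 78.4% for the glycolytic arm and 73.3% for the hypoxia arm. The longer-known core ACGTG alone lay in 44.2% of the windows, 37.8% in the glycolytic arm and 60.0% in the hypoxia arm, against 16.6% of all. CACGTG holds ACGTG on both strands and was counted on each, and it is also the E-box that MYC and other factors read. A match is a description of the letters and not a bound site. Both cores hold a CG, and all genes were not matched to the members for base composition. The members were also chosen as known genes of these pathways, so the higher shares are not a test. Windows of 1 gene can overlap, and by gene 32 of 37 held a core. Slc16a1 and P4ha1 are shown because they were the only tested members that both passed an unadjusted p of 0.05 and did not overlap between the groups. Slc16a3, Egln3 and Ankrd37 are shown for their spread among the BrafYAP libraries and were chosen after their values were seen. Capitals mark the cores on either strand, 5′ to 3′ along the gene.
Slc16a1: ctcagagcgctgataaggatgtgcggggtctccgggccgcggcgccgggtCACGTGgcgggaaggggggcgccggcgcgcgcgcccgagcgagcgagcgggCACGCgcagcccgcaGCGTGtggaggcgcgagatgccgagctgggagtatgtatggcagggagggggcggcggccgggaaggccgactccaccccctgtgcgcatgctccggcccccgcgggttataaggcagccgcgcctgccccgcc
P4ha1: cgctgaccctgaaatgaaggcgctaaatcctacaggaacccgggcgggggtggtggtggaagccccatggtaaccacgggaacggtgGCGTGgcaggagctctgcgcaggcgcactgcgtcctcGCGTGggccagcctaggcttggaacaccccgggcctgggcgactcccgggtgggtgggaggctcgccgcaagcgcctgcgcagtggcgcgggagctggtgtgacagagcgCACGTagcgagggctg
Slc16a3: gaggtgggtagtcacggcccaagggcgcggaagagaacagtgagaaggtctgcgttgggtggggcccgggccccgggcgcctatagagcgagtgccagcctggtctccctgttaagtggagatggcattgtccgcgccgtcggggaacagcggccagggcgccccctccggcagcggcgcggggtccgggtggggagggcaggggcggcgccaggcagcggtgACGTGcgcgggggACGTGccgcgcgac
Egln3: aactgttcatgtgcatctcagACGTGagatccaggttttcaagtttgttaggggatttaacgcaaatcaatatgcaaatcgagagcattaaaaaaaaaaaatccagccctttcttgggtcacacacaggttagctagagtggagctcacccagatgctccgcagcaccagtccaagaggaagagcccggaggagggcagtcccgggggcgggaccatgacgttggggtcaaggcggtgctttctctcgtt
Ankrd37: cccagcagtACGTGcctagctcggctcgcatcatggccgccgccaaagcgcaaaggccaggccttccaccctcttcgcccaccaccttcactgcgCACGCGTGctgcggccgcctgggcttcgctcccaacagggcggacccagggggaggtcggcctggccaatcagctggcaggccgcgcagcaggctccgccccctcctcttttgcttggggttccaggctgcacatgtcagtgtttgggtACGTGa
These windows are chr3:104638414-104638663 on the plus strand for Slc16a1, chr10:59323046-59323295 plus for P4ha1, chr11:120948817-120949066 plus for Slc16a3, chr12:54203875-54204124 minus for Egln3 and chr8:45999851-46000100 minus for Ankrd37. The Slc16a1 window held 4 cores, including a CACGTG that starts 200 bases before the start. P4ha1 held 3 cores, the nearest 16 bases before the start. Slc16a3 held 2 ACGTG cores 27 and 14 bases before the start, Egln3 held 1 core 229 bases before it, and Ankrd37 held 4 cores, of which 2 share bases in CACGCGTG.

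Values below are scaled reads unless another scale is named: the deposited values with the division by the gene's genomic length undone, so that they are proportional to reads. They compare libraries within a gene and not genes with each other. The libraries held an estimated 26.2 to 36.9 M reads (M, 1e6). Differences were fitted with limma on log2(scaled reads + 1) over 16834 genes and are given as log2 fold changes, BrafYAP minus YAP, with standard errors (SE). No gene of the 16834 passed an adjusted p of 0.05 (0%), 20.2% had an unadjusted p under 0.05, 28.7% had groups that did not overlap, and 55.7% were lower in BrafYAP. Replicates are separate tumors or pools by the labels, and p-values measure the spread between these 6 libraries only.

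BrafYAP 6 stood apart and has to be described before the results. Its correlation with the other 5 libraries over all genes tested was 0.732 to 0.836. That between BrafYAP 1 and 2 was 0.968, and those among the YAP libraries were 0.908 to 0.938. The other libraries did not sort by group alone. YAP 2 had 0.926 and 0.914 with BrafYAP 1 and 2, and 0.908 and 0.938 with YAP 1 and 3. With BrafYAP 1 and 2, YAP 3 had 0.905 and 0.887, and YAP 1 had 0.850 and 0.833. YAP 1 was the lowest of the 6 libraries in 27.4% of all genes tested and the highest in 24.2%. Of 12 thyroid genes tested, 9 were highest in BrafYAP 6, Tg and Tshr among them, and 2 were lowest there, Slc5a8 and Pax8. Tg, the thyroglobulin gene, had 19639 reads in BrafYAP 6, 129 and 52 in BrafYAP 1 and 2, and 1279 to 16676 in YAP. Tshr, the thyrotropin receptor gene, was at 0 in BrafYAP 1 and 2. Pax8, a thyroid transcription factor, had 5188 to 14662 reads in all 6, with 5188 in BrafYAP 6. Macrophage transcripts were abundant in the sorted cells, with Lyz2 at 159952 to 595578 in YAP and 44652 to 177302 in BrafYAP. Of 15 immune markers 11 were tested, 11 were lower in BrafYAP and 7 of them at an unadjusted p under 0.05. Their summed level was 208599 to 724358 in YAP and 56478 to 211428 in BrafYAP, with Ncr1, a natural killer cell marker, at 1 read or fewer. The summed level of cell cycle genes was 20354 to 24254 in YAP and 8077 to 12992 in BrafYAP (14 of 19 lower at an unadjusted p under 0.05), that of dissociation-stress genes 122244 to 326345 and 395807 to 676434 (7 of 12 higher), and that of MAPK output genes 7818 to 25516 and 42776 to 69475 (7 of 10 higher). Over all genes, 9.68% were higher and 10.5% lower at an unadjusted p under 0.05. Of the 19 cell cycle genes 2 were above 0, and of the 12 stress and 10 MAPK output genes 2 and 1 were below 0. The part of these marker-list differences in the results below was not tested. In bulk RNA, fewer cells of a type and less RNA per cell cannot be told apart.

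None of the 39 genes passed the adjusted threshold (adjusted p 0.151 to 0.999, limma). Slc16a1, Pfkfb4 and P4ha1 had an unadjusted p under 0.05 (7.69%, against 20.2% of all genes), and Slc16a1, Pfkfb3 and P4ha1 had groups that did not overlap (7.69%, against 28.7%). There were 15 genes with a fitted difference above 0 and 24 below, and the median log2 fold change was −0.12, the same as over all genes tested (−0.12). In 18 of the 39 the difference was within 1 SE of 0. The SE had a median of 0.47 and reached 1.44. Differences of many SE also stayed outside the adjusted threshold: Stc2, another hypoxia gene described below, was at −3.85 (SE 0.38, adjusted p 0.0517, limma). A gene that did not pass is thus not shown to be equal between the groups. Without BrafYAP 6 there were 24 genes above 0 and 15 below, (55.2% of all genes below). Again none passed the adjusted threshold (smallest adjusted p 0.164, limma, 0.856% of all genes), and 3 had an unadjusted p under 0.05, namely Slc2a3, Slc16a1 and P4ha1 (7.69%, against 21.0% of all genes). On the deposited scale 28 of the genes passed a mean of 1, none passed the adjusted threshold (0.246% of all genes), and 3 had an unadjusted p under 0.05 (10.7%, against 19.9%).

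**Figure D1:**
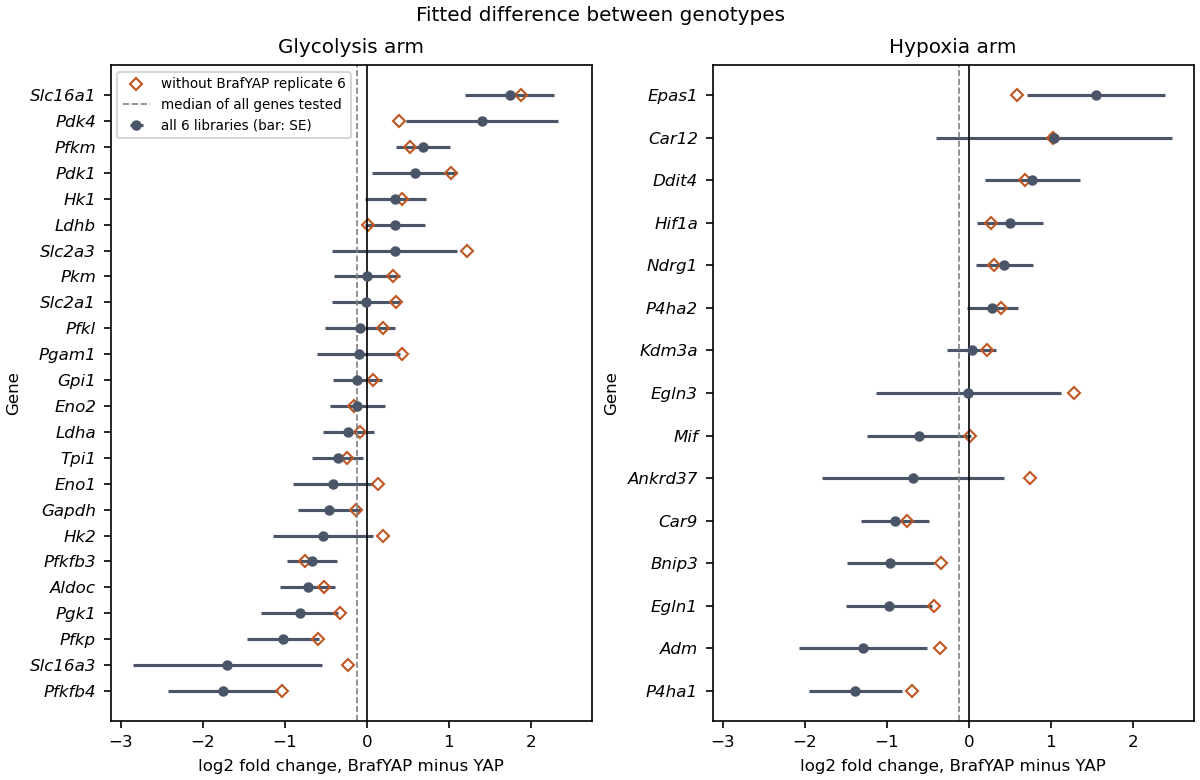
Log2 fold change (BrafYAP minus YAP, horizontal axis) of each tested gene, the glycolytic arm and the hypoxia arm in separate panels, with bars of 1 standard error, open diamonds for the fit without BrafYAP 6 and a dashed line at the median of all genes tested. Slc16a1 lies farthest right in the glycolytic panel at 1.74 and Pfkfb4 farthest left at −1.76, and for Slc16a3, Egln3 and Ankrd37 the diamond lies more than 1 unit to the right of the point.

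The glycolytic arm had 8 genes above 0 and 16 below, with a median log2 fold change of −0.12 (0.10 without BrafYAP 6). Its summed level per exonic length, in TPM recomputed from the reads, was 7912, 7464 and 9486 in YAP and 10478, 8043 and 5022 in BrafYAP 1, 2 and 6. BrafYAP thus held both the highest and the lowest library. Per exonic length, the most abundant members were Pkm, the pyruvate kinase gene (1981 ± 438 TPM in YAP and 2137 ± 839 in BrafYAP, SD, n = 3 each), and Ldha, which makes the muscle-type subunit of lactate dehydrogenase (1723 ± 334 and 1531 ± 338). In both genes the difference between groups was smaller than the SD. This order counts only reads assigned to the named locus: with near-identical copies added, Eno1 had 196153 scaled reads on average in YAP and 141436 in BrafYAP, against 134034 and 140099 for Pkm and 71047 and 60997 for Ldha. These sums are not divided by length (exonic lengths of 5379, 5001 and 3310 bases). They limit the order above and give no order of their own.

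Among the transporters of glucose, Slc2a1, the basal transporter, had 18831, 15921 and 26107 scaled reads in YAP and 30842, 20996 and 11780 in BrafYAP. The BrafYAP libraries lay on both sides of the YAP range, and the log2 fold change was −0.01 (SE 0.42). Slc2a3, a high-affinity transporter, had 1370, 1608 and 657 in YAP and 2453, 2830 and 420 in BrafYAP. BrafYAP 1 and 2 were above every YAP library and BrafYAP 6 was below all of them. The log2 fold change of Slc2a3 was 0.34 (SE 0.76, adjusted p 0.825, limma), and 1.22 without BrafYAP 6 (adjusted p 0.189).

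The hexokinases trap glucose in the cell. Hk1, the housekeeping form, had 3288 to 7422 scaled reads in YAP and 6399 to 7987 in BrafYAP (log2 fold change 0.35, SE 0.38). Hk2, the inducible form, had 1046, 1102 and 1389 in YAP and 1421, 1265 and 291 in BrafYAP. BrafYAP 1 and 2 were within or just above the YAP range and BrafYAP 6 was far below it. The log2 fold change of −0.54 (SE 0.61) became 0.20 without it.

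The phosphofructokinase step showed lower values in BrafYAP for the platelet-type subunit and for both bifunctional regulators. Pfkp had 8938, 7580 and 6429 scaled reads in YAP and 6429, 3924 and 2055 in BrafYAP, with a log2 fold change of −1.02 (SE 0.44, adjusted p 0.247, limma), or −0.59 without BrafYAP 6. The liver-type Pfkl (6224 to 13141 in YAP, 6165 to 14174 in BrafYAP) differed by −0.09 (SE 0.43), and the muscle-type Pfkm by 0.68 (SE 0.33, adjusted p 0.295, limma), with 411 to 706 in YAP and 704 to 1014 in BrafYAP. Reads of Pfkp and Pfkm may be shared with the overlapping genes Pitrm1 and Senp1. In all, 20 of the 40 members overlap another annotated gene, Slc16a1 among them (Gm43581 and Gm43585). The number of reads shared was not tested.

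Pfkfb3 and Pfkfb4 make and break down the sugar phosphate that activates phosphofructokinase. Pfkfb4 had 2581, 2831 and 1228 scaled reads in YAP and 1319, 779 and 226 in BrafYAP. The groups met at YAP 3 and BrafYAP 1, and the log2 fold change was −1.76 (SE 0.67, unadjusted p 0.034, adjusted p 0.211, limma), or −1.03 without BrafYAP 6. The unadjusted p was 0.0898 without YAP 1, 0.097 without YAP 2 and 0.0618 without BrafYAP 6 (limma). With array weights, which let libraries differ in precision, the log2 fold change of Pfkfb4 was −0.48 (unadjusted p 0.256, limma). Pfkfb3 had 2691, 2080 and 2208 in YAP and 1788, 1050 and 1630 in BrafYAP. All 3 BrafYAP libraries were below all 3 YAP libraries, with a log2 fold change of −0.67 (SE 0.31, adjusted p 0.272, limma) that did not rest on BrafYAP 6 (−0.75 without it).

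The remaining enzymes down to enolase were close to the all-gene median or below it. Aldoc, an aldolase, had a log2 fold change of −0.72 (SE 0.34, adjusted p 0.282, limma), Pgk1, the phosphoglycerate kinase, −0.82 (SE 0.47), Gapdh −0.46 (SE 0.38), Eno1, the main enolase, −0.41 (SE 0.49), Tpi1, the triose phosphate isomerase, −0.36 (SE 0.31), and Gpi1, the glucose phosphate isomerase, −0.12 (SE 0.30). Aldoa had deposited values of 156, 154 and 172 in YAP and 220, 134 and 109 in BrafYAP, and its log2 fold change on that scale was −0.12 (SE 0.32). Without BrafYAP 6 the values were −0.33 for Pgk1, −0.13 for Gapdh and 0.13 for Eno1. Pgam1 (−0.10, SE 0.51), Eno2 (−0.12, SE 0.33) and Pkm (0.00, SE 0.40) were within 1 SE of 0. Several of these genes have near-identical copies in the genome to which the authors' counting assigned reads. Copies held 69.2% of the reads of Pgk1 and its copies, 67.0% for Eno1, 59.5% for Gapdh, 43.8% for Mif, 28.6% for Gpi1 and 25.6% for Pgam1. The share was 21.0% for Bnip3, 14.9% for Pkm, 7.44% for Ldha, 6.83% for Ldhb and 2.43% for Tpi1. The per-length levels of these genes may thus be too low by an unknown part. From which locus the reads of the copies came was not tested. With the copies added, the ratio of the means, BrafYAP over YAP, was 0.721 for Eno1 (0.855 without them), 0.767 for Gapdh (0.744) and 0.621 for Pgk1 (0.623).

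Of the lactate transporters, Slc16a1 had the smallest unadjusted p among the glycolytic genes (0.0138, limma), while Slc16a3 overlapped between the groups. Slc16a1 (chr3:104638668-104658462, GRCm38), a transporter that carries lactate and pyruvate in either direction, had 217, 865 and 654 scaled reads in YAP and 2258, 1475 and 1383 in BrafYAP. Every BrafYAP library was above every YAP library, at 1705 ± 481 against 578 ± 330 (SD, n = 3 each), a ratio of 2.95. The log2 fold change was 1.74 (SE 0.54, unadjusted p 0.0138, adjusted p 0.151, limma) and stayed between 1.14 (without YAP 1) and 2.14 when any library was left out. The unadjusted p was 0.0511 without BrafYAP 1 (limma). Slc16a3 (chr11:120948480-120960868), the transporter that exports lactate from highly glycolytic cells and a HIF target, had 3205, 8367 and 6876 in YAP and 4792, 4891 and 228 in BrafYAP. BrafYAP 6 was 21.2-fold below the mean of the other BrafYAP libraries, which lay inside the YAP range. The log2 fold change of Slc16a3 was −1.70 (SE 1.16, adjusted p 0.436, limma), and −0.23 without BrafYAP 6.

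Ldha had 53622 to 76525 scaled reads in YAP and 45578 to 70210 in BrafYAP (log2 fold change −0.22, SE 0.31). Ldhb, the heart-type subunit, had 2055, 1464 and 1800 in YAP and 1946, 1607 and 3567 in BrafYAP, so that only BrafYAP 6 was outside the YAP range (0.35, adjusted p 0.614, limma, and 0.01 without BrafYAP 6). The pyruvate dehydrogenase kinases, which hold pyruvate back from the mitochondrion, were both above 0 in the fit. Pdk1 had 203 to 510 in YAP and 716, 754 and 292 in BrafYAP (0.58, SE 0.52, and 1.02 without BrafYAP 6). Pdk4, a kinase induced in fasting, had 90, 219 and 355 in YAP and 331, 190 and 2104 in BrafYAP (1.41, SE 0.93, adjusted p 0.423, limma), of which 0.39 was left without BrafYAP 6.

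**Figure D2:**
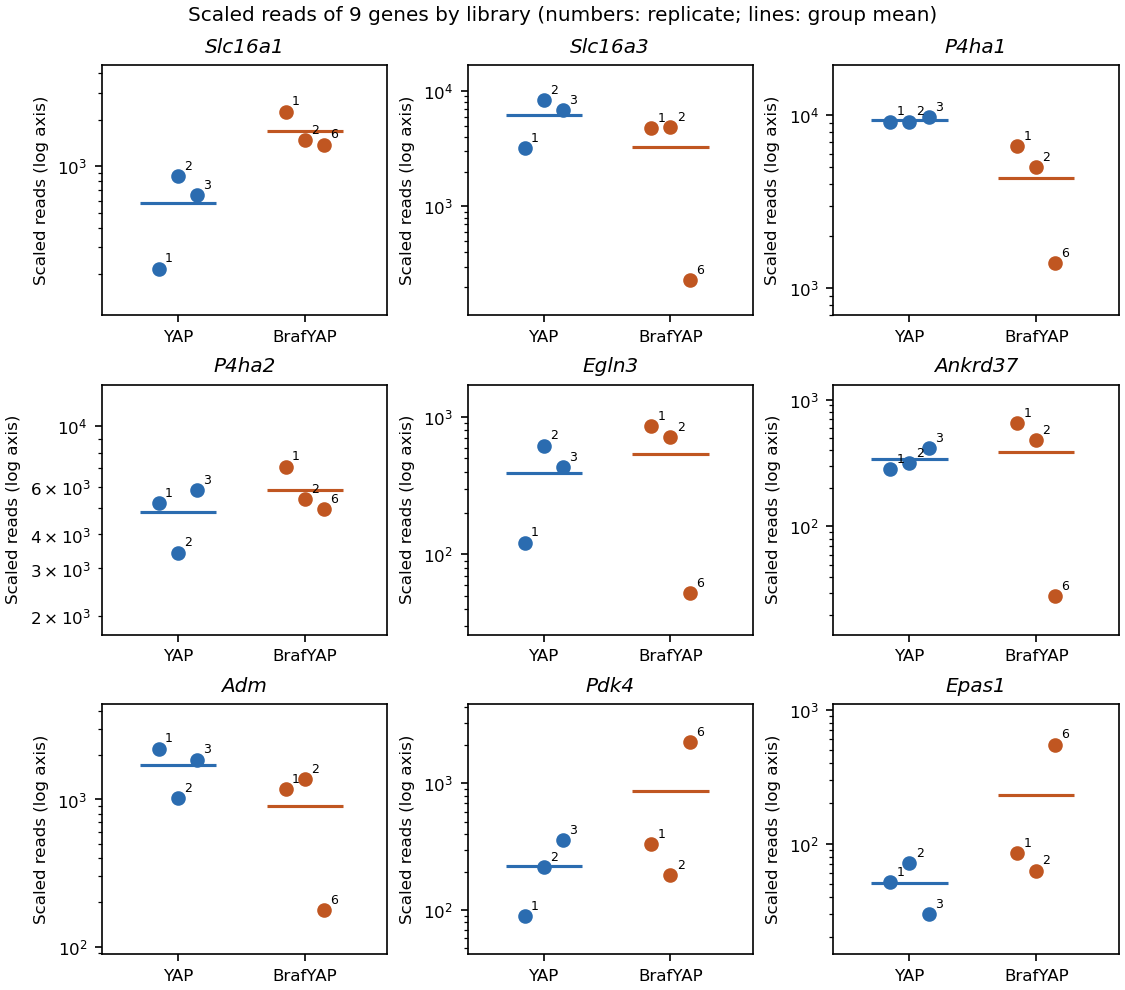
Scaled reads per library (log axis) of 9 genes chosen after their values were seen, YAP and BrafYAP as separate columns of 3 points, with the replicate number beside each point and a line at each group's mean. Slc16a1 is higher in all 3 BrafYAP libraries and P4ha1 lower, while for Slc16a3, Egln3, Ankrd37 and Adm BrafYAP 6 lies below the other 5 libraries and for Pdk4 and Epas1 above them.

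Related genes were also set against each other within a library, as shares of their summed level per exonic length, which removes any factor common to the library. Of 12 such shares, 4 did not overlap between the groups. Single genes do so in 28.7% of cases, so nothing is read from that number. Slc16a1 was 7.5%, 11.0% and 10.3% of Slc16a1 and Slc16a3 together in YAP and 36.1%, 26.6% and 87.9% in BrafYAP. Pfkp was 36.8%, 24.1% and 18.7% of the phosphofructokinase subunits in YAP and 17.0%, 16.4% and 11.1% in BrafYAP. The share of Ldhb was 5.4% in all 3 YAP libraries and 5.5%, 5.9% and 14.2% in BrafYAP, a gap that is clear for BrafYAP 6 only. P4ha1 was 72.7%, 80.3% and 71.7% of P4ha1 and P4ha2 in YAP and 58.6%, 58.6% and 29.8% in BrafYAP. An exact permutation test of 3 against 3 cannot give a two-sided p below 0.1, so these shares are a description. In the other 8, such as Hk1 of the hexokinases (68.7 to 82.1% and 79.7 to 93.9%) and Slc2a3 of the glucose transporters (1.2 to 4.7% and 1.7 to 6.1%), the groups overlapped.

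**Figure D3:**
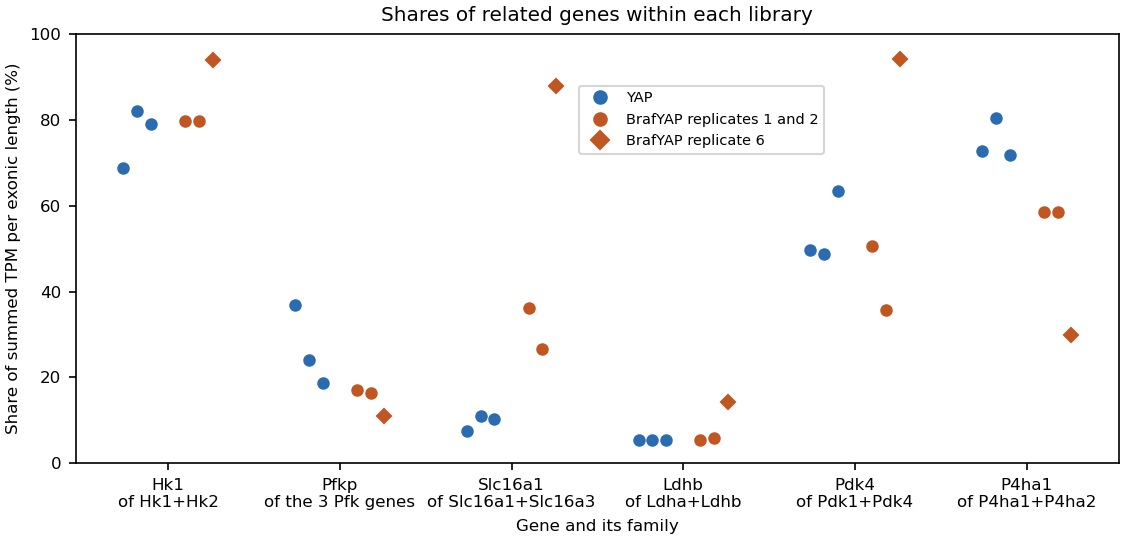
Share of the named gene in the summed level of its family (percent of TPM per exonic length, vertical axis) for each YAP and BrafYAP library, with BrafYAP 6 as a diamond, for 6 of the 12 shares. The Slc16a1 share runs from 7.5 to 11.0% in YAP and from 26.6 to 87.9% in BrafYAP, and the Pfkp, Ldhb and P4ha1 shares also do not overlap.

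The hypoxia arm had 7 genes above 0 and 8 below, with a median log2 fold change near 0. That median was 0.26 without BrafYAP 6, −0.68 without YAP 1, −0.72 without BrafYAP 1 and −0.58 without BrafYAP 2. Hif1a, the widely expressed HIF alpha subunit, had 1682, 2893 and 1276 scaled reads in YAP and 1939, 2515 and 3629 in BrafYAP (0.50, SE 0.40, adjusted p 0.499, limma, and 0.26 without BrafYAP 6). Epas1, the alpha subunit typical of endothelium, had 52, 72 and 30 in YAP and 85, 63 and 549 in BrafYAP. Its log2 fold change of 1.55 (SE 0.84, adjusted p 0.343, limma) was 0.59 without BrafYAP 6. The 6 endothelial markers had a summed level of 1961 in BrafYAP 6, 175 to 331 in BrafYAP 1 and 2 and 383 to 3461 in YAP, and their part in the Epas1 value was not tested. HIF alpha is set mainly through protein stability, which RNA does not show.

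The prolyl hydroxylases sense oxygen, and the Egln3 gene is itself a strong HIF target. Egln1 had 604 to 1207 scaled reads in YAP and 705, 575 and 204 in BrafYAP (−0.97, SE 0.53, adjusted p 0.340, limma, and −0.43 without BrafYAP 6). Egln3 (chr12:54178981-54203860) had 122, 619 and 434 in YAP and 860, 715 and 52 in BrafYAP. BrafYAP 1 and 2 were above all YAP libraries and BrafYAP 6 below all, so that a fitted difference near 0 (SE 1.13) became 1.29 without BrafYAP 6.

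Of the carbonic anhydrases that control pH outside the cell, Car9 had 105 to 212 scaled reads in YAP and 67 to 106 in BrafYAP (−0.90, SE 0.42, adjusted p 0.274, limma). Car12 had 0 to 41 and 5 to 37 and was too low for a statement. Per exonic length Car12 was the least abundant of all tested members.

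The collagen prolyl hydroxylases, HIF targets that modify procollagen, differed in their pattern. P4ha1 (chr10:59323296-59373304) had 9191, 9189 and 9758 scaled reads in YAP and 6629, 5034 and 1391 in BrafYAP. The YAP libraries lay within a narrow band (9379 ± 328, SD, n = 3) and every BrafYAP library was below it. The log2 fold change was −1.38 (SE 0.57, unadjusted p 0.0434, adjusted p 0.233, limma), and −0.70 without BrafYAP 6 (adjusted p 0.210). The unadjusted p rose above 0.05 when any YAP library was left out (0.0828 to 0.0988, limma). P4ha2 had 3428 to 5836 in YAP and 4969 to 7099 in BrafYAP (0.29, SE 0.31).

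The other HIF targets did not separate the groups. Adm, which encodes the vasodilator adrenomedullin, had 2217, 1026 and 1867 scaled reads in YAP and 1171, 1378 and 178 in BrafYAP (−1.29, SE 0.78, adjusted p 0.386, limma, and −0.35 without BrafYAP 6). Ankrd37 (chr8:45996902-46005707), a small ankyrin-repeat protein gene, had 282, 316 and 415 in YAP and 655, 479 and 28 in BrafYAP (−0.69, SE 1.11), with BrafYAP 1 and 2 above YAP and BrafYAP 6 far below. Bnip3, which acts in mitophagy, had 3799 to 5285 in YAP and 4102, 3314 and 1031 in BrafYAP (−0.96, SE 0.53, and −0.34 without BrafYAP 6). Mif, a cytokine gene, had 3407 to 10671 and 1557 to 5913 (−0.61, SE 0.63, and 0.02 without BrafYAP 6). Ndrg1 (0.43, SE 0.35), Ddit4, an inhibitor of mTORC1 (0.78, SE 0.58), and Kdm3a, a histone demethylase (0.03, SE 0.30), completed the arm. Ankrd37 overlaps Ufsp2 and Lrp2bp, with which reads may be shared.

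**Figure D4:**
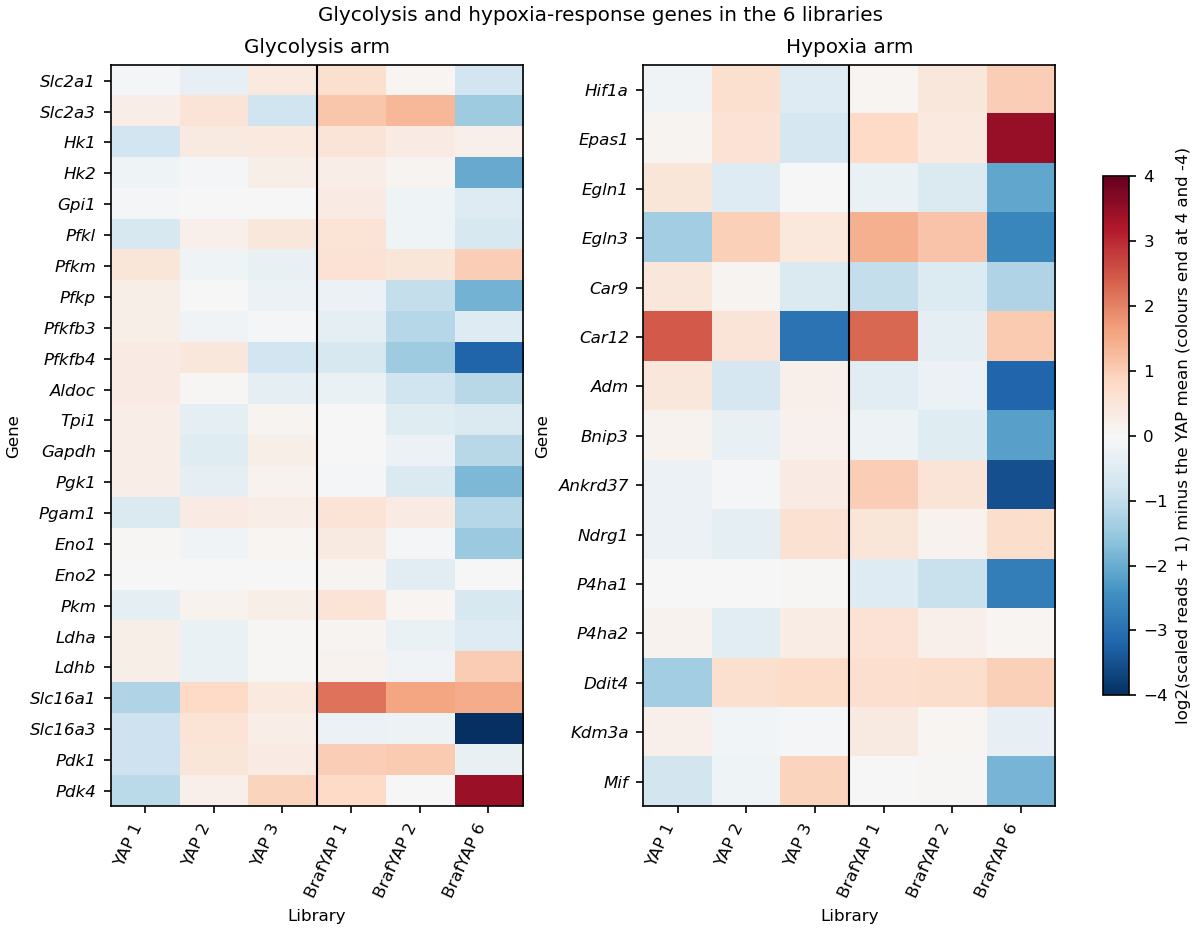
Level of each tested gene in each of the 6 libraries, as log2(scaled reads + 1) minus the mean of the 3 YAP libraries (colour, ending at 4 and −4). The column of BrafYAP 6 is the lowest of the 6 for 25 of the 39 genes.

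The main variation among these genes was thus within the BrafYAP group. BrafYAP 6 was the lowest of the 6 libraries in 25 of the 39 genes (64.1%, against 31% of all genes tested). BrafYAP 1 was the highest of the 6 in 14 genes (35.9%, against 8.92% of all genes tested), 10 of the glycolytic and 4 of the hypoxia arm, so the ratios to its mean with BrafYAP 2 rest on both sides. BrafYAP 6 was under 0.5 times the mean of BrafYAP 1 and 2 in 17 genes (43.6%, against 20.4%), 10 of the glycolytic and 7 of the hypoxia arm, and over 2 times that mean in 3 genes (7.69%, against 16.2%), namely Pdk4, Epas1 and Ldhb. The median log2 ratio of BrafYAP 6 to the mean of BrafYAP 1 and 2 was −0.93 in the glycolytic arm, −0.57 in the hypoxia arm and −0.12 over all genes. Among the low genes the differences were graded: 21.2-fold for Slc16a3, 20.6-fold for Ankrd37, 15.0-fold for Egln3, 7.14-fold for Adm, 6.29-fold for Slc2a3, 4.19-fold for P4ha1, 3.11-fold for Eno1 and 2.20-fold for Slc2a1. Other members were not low: the ratio was 1.07 for Eno2, 1.15 for Pfkfb3, 1.21 for Ddit4, 1.31 for Ndrg1, 1.39 for Pfkm and 1.63 for Hif1a. The counts of 10 and 7 were the same when reads were scaled to the library totals instead. This is a description of single libraries, with no replicate and no test. Other transcripts moved in the same library. In BrafYAP 6, 1 and 2 in turn, the summed level was 56478, 211428 and 151840 for the immune markers, 8077, 12992 and 10864 for the cell cycle genes and 11579, 21301 and 28234 for the fibroblast markers. Such sums rest on abundant genes, such as Lyz2 and the collagen gene Col1a2 (2472, 12855 and 17457). By gene, BrafYAP 6 was the lowest of the 6 libraries for 7 of 11 immune markers, but Ptprc had 873, 613 and 409. The fibroblast markers did not move together: BrafYAP 6 was lowest for 2 of 7 and highest for 3. The summed level was 676434, 395807 and 593105 for the dissociation-stress genes and 36640, 14749 and 8861 for the thyroid genes, beside the endothelial markers given above. The part of these in the low values of BrafYAP 6 was not tested.

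**Figure D5:**
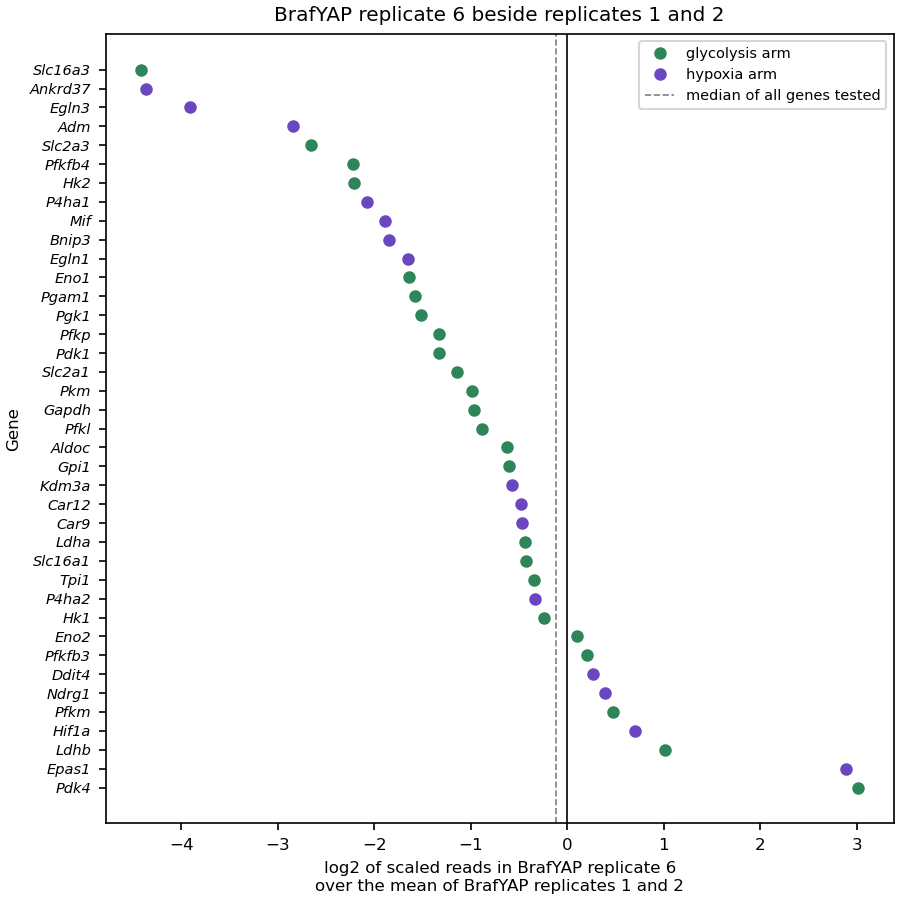
Log2 ratio of BrafYAP 6 to the mean of BrafYAP 1 and 2 for each tested gene, by arm, with a dashed line at the all-gene median of −0.12. Most genes lie left of the line, Slc16a3, Ankrd37 and Egln3 farthest, and Pdk4, Epas1 and Ldhb lie farthest right.

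Further genes of the same pathways were read from longer lists. Of 43 other genes of glucose metabolism 36 were tested, and 3 were higher and 6 lower in BrafYAP at an unadjusted p under 0.05 (over all genes, 9.68% and 10.5%). None passed the adjusted threshold. Bsg, the chaperone that brings SLC16A transporters to the membrane, had 4324, 50718 and 25019 scaled reads in YAP and 84630, 56830 and 85124 in BrafYAP (log2 fold change 2.07, SE 0.84, adjusted p 0.228, limma). All BrafYAP libraries were above all YAP libraries. Slc2a8, an intracellular sugar transporter (2.88, SE 0.72), and Pdk2 (2.15, SE 0.72) were also higher without overlap. Hk3, a hexokinase of white blood cells (−2.14, SE 0.80), Slc2a6 (−1.55, SE 0.44), Slc16a7 (−1.53, SE 0.53), Slc2a12 (−1.42, SE 0.48) and Galm (−1.22, SE 0.36) were lower without overlap. Hk3 moved in the direction of the immune markers, whose part was not tested.

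Of 46 other hypoxia genes 45 were tested, with 6 higher and 5 lower at an unadjusted p under 0.05. These are 13.3% and 11.1%, near the 9.68% and 10.5% of all genes. None passed the adjusted threshold. Vegfa, the endothelial growth factor gene, had 590, 504 and 539 scaled reads in YAP and 917, 819 and 1459 in BrafYAP (0.92, SE 0.32, adjusted p 0.175, limma). Stc1 (3.22, SE 1.10), Ero1l, an oxidase of the endoplasmic reticulum (1.48, SE 0.37), Kdm4b (1.31, SE 0.39) and Vldlr (1.09, SE 0.44) were also higher without overlap. Stc2, a glycoprotein hormone gene, had 2106, 1986 and 1229 in YAP and 164, 122 and 84 in BrafYAP. Its groups were far apart (−3.85, SE 0.38), and it lay just outside the threshold (adjusted p 0.0517, limma). Plod1, a collagen lysyl hydroxylase (−1.22, SE 0.31), Tfrc, the transferrin receptor (−0.94, SE 0.37), and Arnt, the partner of the HIF alpha subunits (−0.82, SE 0.30), were lower without overlap. The named HIF targets thus stood on both sides of 0, and nothing is read from their number.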

How the data were processed

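Gene expression was analysed from 6 mouse libraries, YAP (n = 3) and BrafYAP (n = 3), made from Kate-positive sorted cells with SMART-Seq amplification (12 cycles) and read as 50-nt pairs. Alignment by the authors was to mm10 with STAR (2.6.1d per the submitters' processing notes, with bcl2fastq 2.2). They quantified Ensembl release 95 genes with the Partek E/M model, and deposited TPM values with 0.0001 added. The values were found to be divided by the genomic span of each gene, introns included: undoing this gave whole multiples of 1 read for 71.7 to 76.0% of values below 200 reads (tolerance 0.05), against 21.2 to 24.9% with the exonic length. Scaled reads were therefore (value − 0.0001) × span × 1 constant, with spans from GENCODE M21. Apart from the sums with near-identical copies, levels were compared between genes only as TPM recomputed with exonic length. The estimated reads per library limit precision by counting error only.

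Genes with 1 locus and a mean of at least 10 scaled reads were fitted with limma 3.58.1 in R 4.3.3 (eBayes with trend, two-sided, pseudocount 1, Benjamini-Hochberg threshold 0.05), which was tested on simulated data. Alternatives changed the scale, pseudocount, filter, normalization, weights, replicate block and libraries included. The members and lists were chosen with earlier results of these data known. All members are named. Of other pathway genes, at most 5 higher and 5 lower per list are named, by size, among those with unadjusted p under 0.05 and no overlap. Promoters follow that rule, with the exceptions stated. Further marker lists fixed with these were thyroid (12 tested, 1 higher and 1 lower at an unadjusted p under 0.05), epithelial (8 tested, 1 and 0), fibroblast (7 tested, 2 and 1), endothelial (6 tested, 0 and 0), muscle (2 tested, 0 and 2) and erythroid (5 tested, 0 and 0), with none past the adjusted threshold.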

Additional observations from a re-analysis of the deposited data

How the results depend on the processing

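No setting that kept all libraries at equal weight brought any of the 39 genes past the adjusted threshold. With array weights, 3 glycolytic genes and 1 hypoxia gene passed (Slc2a3 1.66, Pfkm 0.80, Slc16a1 1.60 and Car12 3.56), beside 4650 of all genes. There, 4 glycolytic and 3 hypoxia genes were higher at an unadjusted p under 0.05 and 1 of each arm was lower, beside 3275 higher and 3640 lower of all 16834 genes. The number of glycolytic genes higher at that p was 1 in the main analysis and 2 with median-ratio scaling. Beside them, 1629 of all 16834 genes and 1949 of 16763 were higher. The number of glycolytic genes lower was 1, and 2 with a pseudocount of 10, with library-total scaling and with quantile normalization. The all-gene number lower was 1775 of 16834, and 1828 of 16834, 1668 of 16865 and 1690 of 16834 in these settings. The number of hypoxia genes lower was 1 (P4ha1), and 0 with exonic TPM, with median-ratio scaling and without the trend. For these settings in that order, 1377 of 14768, 1425 of 16763 and 1736 of 16834 of all genes were lower. Over all genes the adjusted count was 0, and 18 on the deposited scale, 62 with exonic TPM, 45 with a pseudocount of 10, 55 with library-total scaling, 62 with quantile normalization and 20 without the trend. Median-ratio scaling moved the all-gene median from −0.12 to 0.01.

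Leaving out 1 library at a time gave 0 to 2 glycolytic genes higher and 0 to 4 lower at an unadjusted p under 0.05. For the hypoxia arm it gave 0 to 1 higher and 0 to 2 lower. Beside them, 1081 to 2370 of all genes were higher and 1204 to 1916 lower, of 16590 to 16900 tested. The 4 lower glycolytic genes were found without BrafYAP 1, beside 1590 lower of 16900 genes. The median ran from −0.40 to 0.10 in the glycolytic and from −0.72 to 0.26 in the hypoxia arm. No member passed the adjusted threshold. For 15 genes the sign depended on 1 library: the log2 fold change ran from −1.51 to 0.75 for Ankrd37, −0.43 to 2.26 for Car12, −0.72 to 1.29 for Egln3, −0.79 to 0.13 for Eno1, −0.23 to 0.04 for Eno2, −0.34 to 0.08 for Gpi1, −0.04 to 0.55 for Hk1, −0.94 to 0.20 for Hk2, −0.14 to 0.22 for Kdm3a, −0.98 to 0.02 for Mif, −0.41 to 0.19 for Pfkl, −0.42 to 0.42 for Pgam1, −0.28 to 0.32 for Pkm, −0.34 to 0.36 for Slc2a1 and −0.16 to 1.22 for Slc2a3. Other settings under which the sign turned were as follows: Slc2a1 at 0.04 and Egln3 at 0.13 with exonic TPM, Egln3 at 0.03 with a pseudocount of 10, Slc2a1 at 0.00 and Egln3 at 0.01 with library-total scaling, and Slc2a1 at 0.07 with quantile normalization. With median-ratio scaling they were Slc2a1 at 0.11, Gpi1 at 0.01, Pfkl at 0.04, Pgam1 at 0.03, Eno2 at 0.01 and Egln3 at 0.12. With array weights they were Slc2a1 at 0.07, Gpi1 at 0.09, Pgam1 at 0.16, Eno1 at 0.04, Pdk4 at −0.06, Egln3 at 0.77, Ankrd37 at 0.35 and Ndrg1 at −0.10.

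The groups share the replicate numbers 1 and 2 only, and the labels do not say that a number marks a pair. The deviations of same-numbered libraries had correlations of −0.03 and 0.05. With the replicate block, which leaves YAP 3 and BrafYAP 6 without a partner, 0 glycolytic genes were higher and 1 lower at an unadjusted p under 0.05. In the hypoxia arm 0 were higher and 0 lower. Beside them, 1119 of all 16834 genes were higher and 1413 lower. With this block the log2 fold change was 0.56 for Slc2a1, 0.32 for Hk2, 0.09 for Gpi1, 0.41 for Pfkl, 0.56 for Pgam1, 0.17 for Eno1, 1.51 for Egln3, −0.45 for Car12, 0.91 for Ankrd37 and 0.47 for Mif. What causes these shifts was not tested.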
